A study of Rattus norvegicus with 6 samples.

Results

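Cyclic nucleotide phosphodiesterases and adenylyl cyclases were examined in bulk RNA of rat ventral hippocampus. The animals were males of the outbred Sprague Dawley strain. The genes were taken by symbol, as Pde or Adcy followed by a number and, for the phosphodiesterases, an optional letter. This gave 35 of the 22601 genes in the count table, 25 phosphodiesterases and 10 adenylyl cyclases, and left out relatives in name such as Pde4dip and Adcyap1. The study compared adult rats of 4 months with aged rats of 22 months, none of them labelled with a treatment or a genetic change. Of 10 rats of each age tested in the Morris water maze, a test of spatial memory, 3 were picked at random for sequencing, with 1 library per rat. The series text names the ventral part, while the sample labels give only the hippocampus. The water maze results of single rats were not used here. All values come from bulk tissue, in which fewer cells of a type and less RNA per cell cannot be told apart.

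Adenylyl cyclases make cyclic AMP from ATP, and phosphodiesterases break down cyclic AMP, cyclic GMP or both, so the enzymes together set how large and how long a cyclic nucleotide signal is. In hippocampal neurons, cyclic AMP activates protein kinase A, Epac and cyclic nucleotide-gated channels and leads to phosphorylation of CREB, steps that long-lasting synaptic potentiation and memory storage need. The membrane cyclases differ in their control: Adcy1, Adcy3 and Adcy8 are stimulated by calcium, Adcy5 and Adcy6 are inhibited by it, and Adcy2, Adcy4 and Adcy7 respond to G protein beta-gamma subunits. Among the phosphodiesterases, the Pde4, Pde7 and Pde8 enzymes act on cyclic AMP, Pde5, Pde6 and Pde9 on cyclic GMP, and Pde1, Pde2, Pde3, Pde10 and Pde11 on both.

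No phosphodiesterase or cyclase was called different between the ages. Of the 31 genes with enough reads to test, 0 passed an adjusted p under 0.05 (edgeR's quasi-likelihood test, adjusted over all 14588 genes tested), against 0% of all genes tested, and the smallest adjusted p among them was 1.00. At an unadjusted p under 0.05 there was 1 gene of the 31, Pde11a, against 3.45% of all genes tested. DESeq2 and limma-voom also called 0 of the 31. By counts scaled to library size (CPM), the 3 aged libraries lay below all 3 adult libraries in 1 gene, Pde6g, and above them in 0 genes. Over all genes tested, the groups did not overlap by CPM in 7.56%, with aged higher in 3.13% and lower in 4.43%. By the authors' values per gene length (FPKM), the groups of Pde6g overlapped and those of Pde6d did not. Aged values averaged higher in 18 of the 31 genes and lower in 13, beside 7214 higher and 7374 lower among all genes tested. The median log2 fold change of the 31 was 0.03, beside -0.0022 over all genes tested. It was 0.01 for the 21 phosphodiesterases tested and 0.13 for the 10 cyclases.

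**Figure D1:**
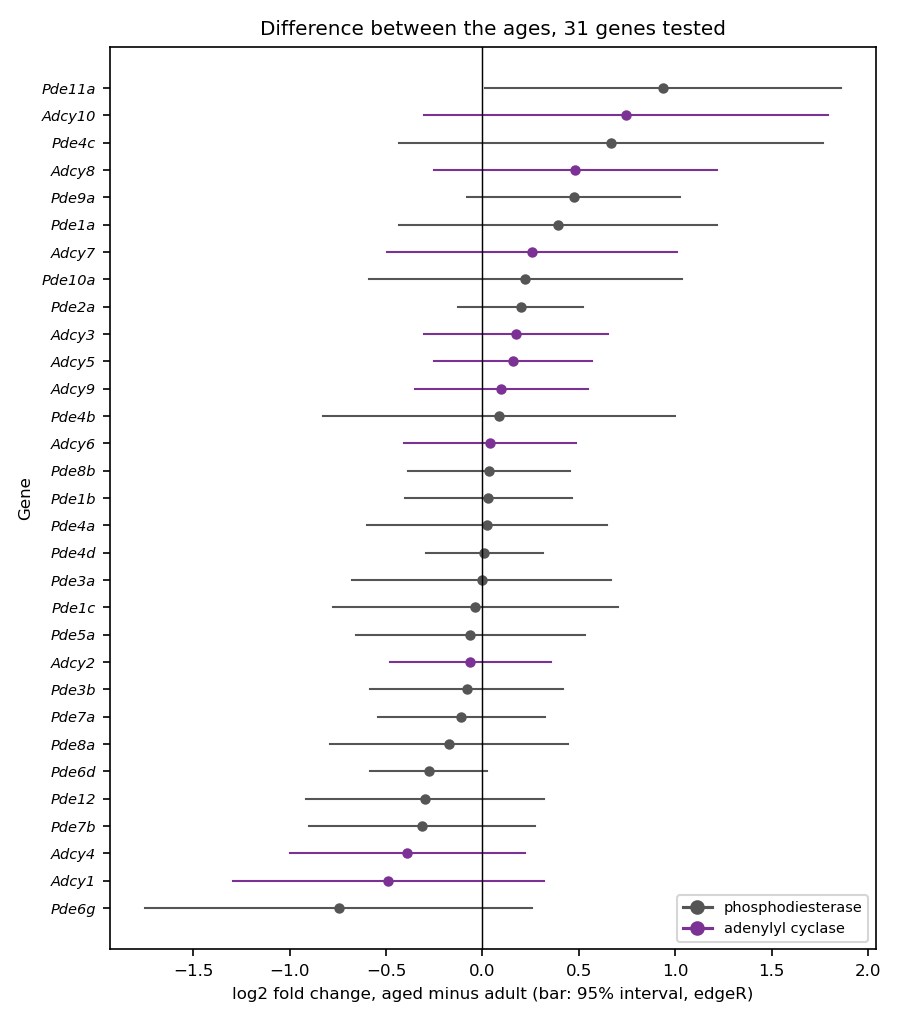
Log2 fold change, aged minus adult, for each of the 31 genes tested (points), with 95% intervals from edgeR (bars), grey for phosphodiesterases and purple for adenylyl cyclases. Fold changes run from -0.75 (Pde6g) to 0.94 (Pde11a), and the interval of Pde11a alone does not reach 0.

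How large a difference the 6 rats leave possible varied from gene to gene. For 20 of the 31 genes the 95% interval of the log2 fold change lay within 1 unit of 0, which is a 2-fold difference in either direction, and for 5 it lay within 0.5 units. The narrowest were Pde4d, at -0.29 to 0.31, and Pde6d, at -0.58 to 0.026. The widest was that of Pde4c, at -0.43 to 1.77, a gene with 225 reads in all libraries together.

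Library totals lay between 12476758 and 15689921 counts. Markers of hippocampal neurons were present in every library: the glutamate transporter gene Slc17a7 stood between 681 and 1338 CPM, the granule cell gene Prox1 between 28.4 and 100.1 CPM and the CA1 gene Wfs1 between 35.0 and 233 CPM. Transcripts of neighbouring or foreign tissue differed between libraries. The choroid plexus gene Ttr reached 2076 CPM in adult replicate 1 and at most 68.0 CPM elsewhere. The 10 mature oligodendrocyte genes summed to 17862, 12154 and 11833 CPM in the adult and 7021, 7375 and 9379.5 CPM in the aged libraries, with every aged rat below every adult rat. The 10 liver genes summed to 23.0 and 26.1 CPM in replicate 1 of each age and to between 216.5 and 566.5 CPM in the other 4 libraries. Summed levels of 9 genes of skeletal muscle were 161, 152 and 541 CPM in the adult and 164, 37.8 and 92.9 CPM in the aged libraries, highest in adult replicate 3. The 5 excitatory neuron genes summed to 991, 1703 and 1643 CPM in the adult and 1979, 1069.8 and 1484 CPM in the aged libraries. What part these differences have in the values below was not tested. CPM are counts relative to the TMM-scaled library size and serve to compare libraries. FPKM, the authors' values, also divide by gene length and serve to compare genes.

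Pde2a, the cyclic GMP-stimulated enzyme of synapses, was the most abundant member per length, at a mean of 117 FPKM over the 6 libraries, above 95.3% of the genes tested. It was followed by Pde6d (45.0), Adcy2 (41.3), Adcy1 (37.8), Pde1b (29.9), Pde9a (18.9), Adcy9 (17.8), Pde1a (17.3) and Adcy3 (13.4), the 9 members with a mean of at least 10 FPKM. Another 16 lay between 1 and 10 FPKM and 10 below 1 FPKM. In this order only Pde2a stood clear of its neighbour, its lowest library at 97.3 FPKM being above the highest of Pde6d at 52.4 FPKM. In the other 33 of the 34 neighbouring pairs the ranges over the libraries overlapped.

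**Figure D2:**
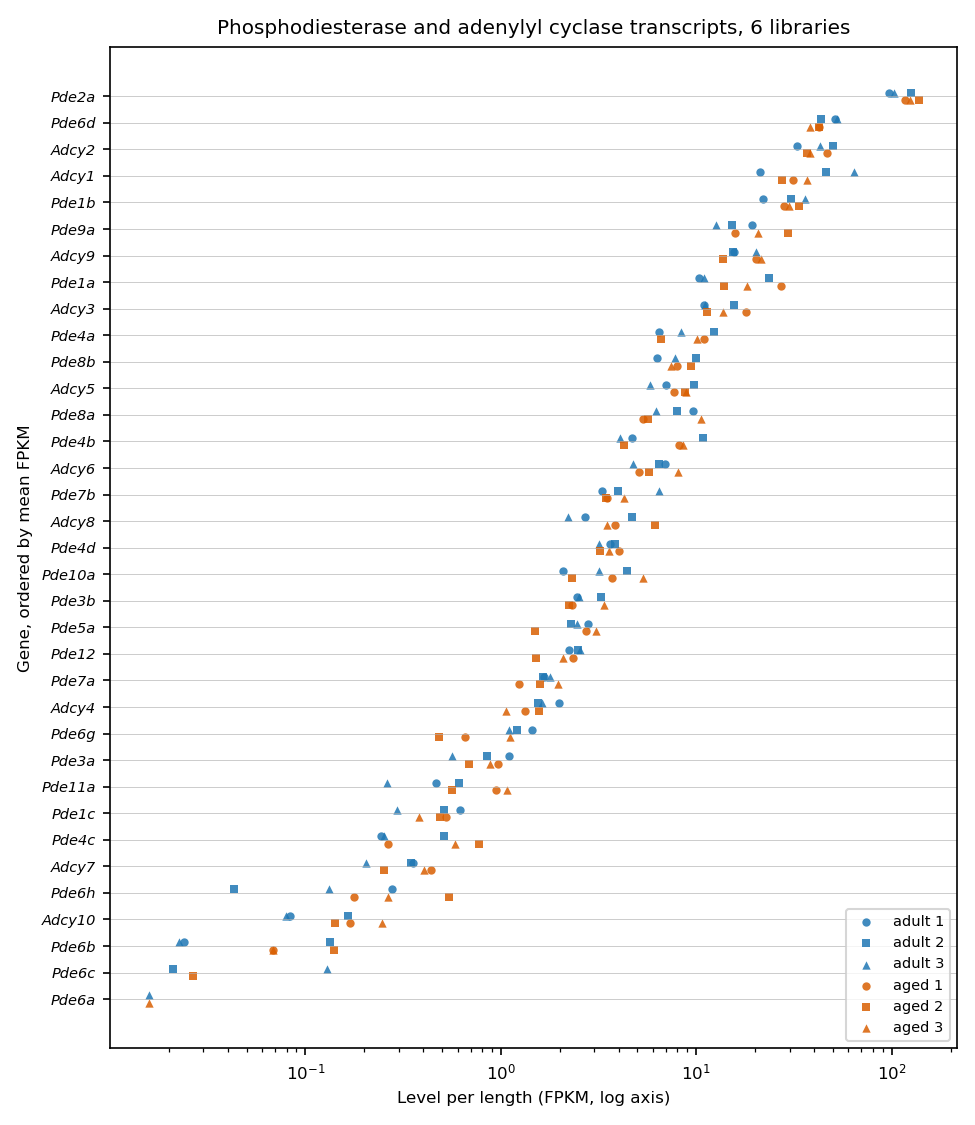
FPKM (log axis) of all 35 phosphodiesterase and adenylyl cyclase genes in each library, adult in blue and aged in orange, with marker shape for the replicate. Libraries at 0 (4 for Pde6a, 3 for Pde6c) are not drawn. Pde2a lies to the right of all other genes, and adult and aged points are mixed in nearly every row.

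The share of the leading phosphodiesterase lay within a few percentage points in all libraries, while that of Adcy1 among the cyclases ranged more widely. Among the 21 catalytic cyclic nucleotide phosphodiesterases, Pde2a held 50.1, 48.8 and 49.0% in adult and 48.6, 53.4 and 48.8% in aged replicates 1 to 3 of the summed FPKM. This set leaves out Pde6d, Pde6g, Pde6h and Pde12 and holds Pde6a, Pde6b and Pde6c. It is therefore not the set of 21 phosphodiesterases tested, which was taken by symbol. Pde1b held 11.3 to 17.1%, Pde9a 5.87 to 11.5% and Pde1a 5.20 to 11.3% over the 6 libraries. Enzymes acting on both nucleotides made up 72.7 ± 2.28% in adult and 73.8 ± 1.52% in aged rats, those specific for cyclic AMP 18.8 ± 0.852% in adult and 16.4 ± 2.53% in aged rats and those specific for cyclic GMP 8.49 ± 2.51% in adult and 9.77 ± 2.22% in aged rats. Adcy1 and Adcy2 led the cyclases, with Adcy1 at 21.3, 30.7 and 41.9% in adult and 23.1, 24.5 and 27.9% in aged replicates 1 to 3 and Adcy2 at 33.0, 33.4 and 28.2% in adult and 34.7, 33.1 and 28.8% in aged replicates 1 to 3. The sum over the phosphodiesterases was 194, 258 and 209.5 FPKM in adult and 240.4, 257 and 254 FPKM in aged replicates 1 to 3, and the sum over the cyclases was 99.7, 149.9 and 153 FPKM in adult and 135, 112 and 132 FPKM in aged replicates 1 to 3. The adult and aged ranges overlapped in both sums.

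**Figure D3:**
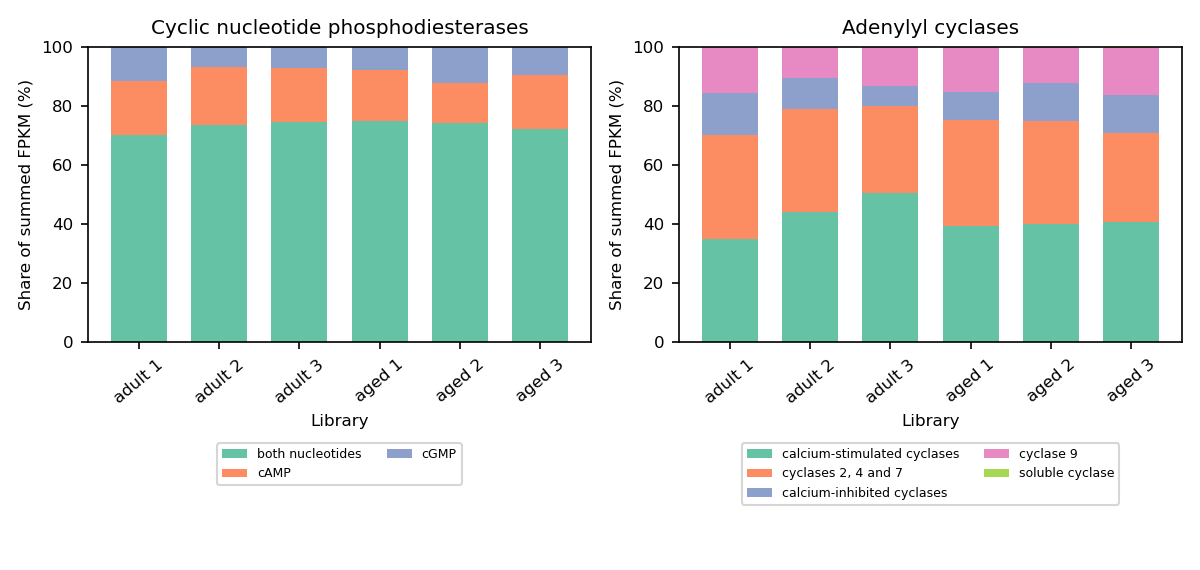
Share (%) of the summed FPKM taken by each class of enzyme in each library, for the catalytic phosphodiesterases (left, by the nucleotide they break down) and the cyclases (right, by regulation). Phosphodiesterases acting on both nucleotides hold 70.2 to 75.0% in every library, while the calcium-stimulated cyclases range from 35.0 to 50.6%.

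Adcy1, the calmodulin-stimulated cyclase abundant in dentate granule cells, had the widest range over the 6 libraries, as a ratio, of the 9 members at 10 FPKM or more. Adcy1 stood at 291, 626 and 905 CPM in adult replicates 1 to 3 and at 435, 377.5 and 487 CPM in aged replicates 1 to 3. Its adult values differed 3.11-fold between rats, and all 3 aged values fell inside the adult range. Adult and aged means of Adcy1 were 607 ± 308 and 433 ± 54.7 CPM (SD, n = 3), and the log2 fold change was -0.49 ± 0.35 (SE), not called by edgeR (adjusted p = 1.00). Without adult replicate 1 the log2 fold change was -0.81, and without adult replicate 3 it was -0.07. The 7 dentate granule cell genes summed to 269, 283 and 507 CPM in the adult and 345, 321 and 348 CPM in the aged libraries, so that adult replicate 3 was the highest library for both. Calb1 made up 133, 139 and 135 CPM of that sum in the adult and 187, 188 and 159 CPM in the aged libraries. Its log2 fold change was 0.40, while those of Prox1 (-0.45), C1ql2 (-0.43), Plk5 (-0.53), Tdo2 (-0.88) and Dsp (-0.061) lay below 0. None of these was called by edgeR, and Lct was not tested. The 5 CA1 genes summed to 226, 599 and 519.6 CPM in the adult and 476, 391 and 285 CPM in the aged libraries, lowest in adult replicate 1 as was Adcy1. The part of the dentate and CA1 genes in the spread of Adcy1 was not tested.

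Adcy8, the other calmodulin-activated cyclase studied in hippocampal plasticity, was present at a lower level per length (3.84 FPKM). For Adcy8 the adult libraries held 14.0, 24.0 and 11.7 CPM and the aged libraries 20.2, 31.9 and 17.5 CPM, each in the order of replicates 1 to 3. Aged replicate 2 was highest and adult replicate 3 lowest, and the groups overlapped. Adcy8 thus averaged 16.6 ± 6.54 and 23.2 ± 7.63 CPM (adult, then aged, with SD), with a log2 fold change of 0.48 ± 0.32 (SE) that edgeR did not call. Without aged replicate 2 the log2 fold change was 0.19, and without adult replicate 2 it was 0.85. Adcy3, the cyclase of neuronal primary cilia and of olfactory neurons, stood at 13.4 FPKM. Adult rats had 53.1, 75.5 and 55.6 CPM of Adcy3 (replicates 1 to 3), and aged rats had 88.6, 55.0 and 64.3 CPM. Adult replicate 2 and aged replicates 1 and 3 were the higher libraries. In the GRCr8 annotation Adcy3 overlaps Dnajc27, at 143.6 to 201.2 CPM, and Cenpo, at 1.33 to 2.46 CPM, so the count of Adcy3 is uncertain. In the edgeR fit the log2 fold change of Adcy3 was 0.17 ± 0.21 (SE), from means of 61.4 ± 12.3 and 69.3 ± 17.3 CPM (SD), and it was not called.

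Adcy2, stimulated by beta-gamma subunits together with Gs, stood at 41.3 FPKM beside 37.8 FPKM for Adcy1, and the ranges of both over the libraries overlapped. Adcy2 reached 127.5, 192 and 172 CPM in the adult libraries and 185, 144 and 142 CPM in the aged ones. Adult replicate 1 was lowest and adult replicate 2 highest, so all aged values lay between adult ones. Adult and aged means of Adcy2 were 164 ± 33.1 and 157 ± 24.3 CPM (SD, n = 3), and the log2 fold change was -0.063 ± 0.18 (SE), not called by edgeR (adjusted p = 1.00). Adcy4 and Adcy7, of the same group, were low at 1.52 and 0.333 FPKM. Adcy4 stood at 6.76, 5.25 and 5.73 CPM in adult replicates 1 to 3 and at 4.66, 5.38 and 3.50 CPM in aged replicates 1 to 3. Aged replicates 1 and 3 lay below all adult libraries and aged replicate 2 lay among them. For Adcy7 the adult libraries held 4.92, 4.80 and 2.93 CPM and the aged libraries 6.19, 3.53 and 5.38 CPM, each in the order of replicates 1 to 3. The log2 fold changes were -0.39 ± 0.26 for Adcy4 and 0.26 ± 0.33 for Adcy7 (SE).

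Of the calcium-inhibited cyclases, Adcy5, the main cyclase of the striatum, stood at 7.96 FPKM and Adcy6 at 6.16 FPKM. Adult rats had 61.1, 84.3 and 52.2 CPM of Adcy5 (replicates 1 to 3), and aged rats had 68.9, 76.5 and 75.2 CPM. Adcy6 reached 50.7, 46.5 and 35.5 CPM in the adult libraries and 38.0, 41.6 and 56.7 CPM in the aged ones. Neither pair of groups separated, and the log2 fold changes were 0.16 ± 0.18 and 0.04 ± 0.19. Adcy9, a membrane cyclase little sensitive to forskolin, followed Adcy2 and Adcy1 among the cyclases at 17.8 FPKM. Adcy9 stood at 114.5, 112 and 152 CPM in adult replicates 1 to 3 and at 152, 101 and 151.5 CPM in aged replicates 1 to 3. Adult replicate 3 and aged replicates 1 and 3 were the highest libraries, near 152 CPM. The soluble cyclase Adcy10, which responds to bicarbonate, was at 0.148 FPKM, with 97 reads in all libraries together. For Adcy10 the adult libraries held 0.615, 1.20 and 0.600 CPM and the aged libraries 1.26, 1.04 and 1.75 CPM, each in the order of replicates 1 to 3. Adcy10 thus averaged 0.805 ± 0.343 and 1.35 ± 0.362 CPM (adult, then aged, with SD), with a log2 fold change of 0.75 ± 0.45 (SE) that edgeR did not call. In the GRCr8 annotation Adcy10 overlaps Mpc2, which stood between 77.9 and 123 CPM, so its low count is uncertain.

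Pde2a, described above as the most abundant member, acts on both nucleotides. Adult rats had 426, 547 and 462 CPM of Pde2a (replicates 1 to 3), and aged rats had 522, 602 and 523 CPM. Adult replicate 1 was lowest and aged replicate 2 highest, and adult replicate 2 lay above 2 of the aged libraries. In the edgeR fit the log2 fold change of Pde2a was 0.20 ± 0.14 (SE), from means of 478 ± 62.2 and 549 ± 45.8 CPM (SD), and it was not called. The 250 bases before each of the 2 starts in the RefSeq table (GRCr8) are shown because counts per gene add the transcripts of all starts together. The window before the start at lower coordinates lies at chr1:165235373-165235622 (plus strand) and holds 3 CG dinucleotides, and the other lies at chr1:165265759-165266008 (plus strand) and holds 19, beside a median of 5 over all windows in the table.
Pde2a start 1: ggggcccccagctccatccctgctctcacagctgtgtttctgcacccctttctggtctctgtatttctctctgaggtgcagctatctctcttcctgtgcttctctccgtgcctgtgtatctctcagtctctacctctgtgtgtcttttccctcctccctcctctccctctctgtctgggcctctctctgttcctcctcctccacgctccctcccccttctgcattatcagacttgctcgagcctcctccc
Pde2a start 2: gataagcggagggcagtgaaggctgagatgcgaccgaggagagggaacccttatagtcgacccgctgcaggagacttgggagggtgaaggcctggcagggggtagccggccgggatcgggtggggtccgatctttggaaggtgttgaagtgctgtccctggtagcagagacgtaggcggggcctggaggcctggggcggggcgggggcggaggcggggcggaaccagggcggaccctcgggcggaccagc

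The calmodulin-activated Pde1 enzymes were led by Pde1b. Pde1b reached 108, 148 and 181.5 CPM in the adult libraries and 140.5, 165 and 142 CPM in the aged ones. Pde1a stood at 21.5, 48.8 and 23.3 CPM in adult replicates 1 to 3 and at 57.4, 28.9 and 36.4 CPM in aged replicates 1 to 3. For Pde1c the adult libraries held 6.90, 5.69 and 3.40 CPM and the aged libraries 5.99, 5.46 and 4.13 CPM, each in the order of replicates 1 to 3. Pde1b was lowest and highest in adult libraries. Pde1a was highest in aged replicate 1 and adult replicate 2, and its log2 fold change of 0.39 ± 0.36 was 0.0844 when aged replicate 1 was left out and 0.87 when adult replicate 2 was. Within the Pde1 group, Pde1a took between 23.1 and 48.7% of the FPKM and Pde1b between 50.4 and 76.3%, and the extremes were adult replicate 3 and aged replicate 1. Pde1b overlaps Ppp1r1a in the GRCr8 annotation, a gene at 95.4 to 203 CPM, which makes the count of Pde1b uncertain, since the use of strand is not known.

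Pde11a, known for its enrichment in the ventral hippocampus, was low, at 0.653 FPKM and 19 to 78 reads per library. Adult rats had 2.19, 2.84 and 1.27 CPM of Pde11a (replicates 1 to 3), and aged rats had 4.53, 2.65 and 4.88 CPM. Aged replicates 1 and 3 were above every adult library, while aged replicate 2 lay between adult replicates 1 and 2. Adult and aged means of Pde11a were 2.10 ± 0.793 and 4.02 ± 1.20 CPM (SD, n = 3), and the log2 fold change was 0.94 ± 0.40 (SE), not called by edgeR (adjusted p = 1.00). The unadjusted p by edgeR was 0.047, and 0.134 without adult replicate 3. The log2 fold change stayed between 0.68 and 1.22 when each library was left out in turn, with the lowest value without adult replicate 3, and it was 0.36 on the log2(FPKM + 1) scale. Summed levels of 4 genes of the ventral hippocampal field (Dcn, Trhr, Grp and Htr2c) were 247, 126 and 34.3 CPM in the adult and 143, 198 and 121 CPM in the aged libraries. Htr2c, also known from choroid plexus, made up 169 CPM of that sum in adult replicate 1, the library with the most Ttr, and 15.5 CPM in adult replicate 3. Dcn, Grp and Htr2c were lowest in adult replicate 3, as was Pde11a, and Trhr was lowest in adult replicate 2. The part of these genes in the Pde11a values was not tested.

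Windows of 250 bases before each of the 3 annotated starts of Pde11a (RefSeq, GRCr8, minus strand) are shown because it was the member with the smallest p. Capitals mark CCAAT, searched on both strands, which 34.0% of the 33469 windows in the table hold. They lie at chr3:81704398-81704647 (minus strand), chr3:81680613-81680862 (minus strand) and chr3:81587091-81587340 (minus strand). The window of start 1 holds 1 CCAAT and those of starts 2 and 3 hold 0, and start 2 has 22 CG dinucleotides against 4 in each of the others.
Pde11a start 1: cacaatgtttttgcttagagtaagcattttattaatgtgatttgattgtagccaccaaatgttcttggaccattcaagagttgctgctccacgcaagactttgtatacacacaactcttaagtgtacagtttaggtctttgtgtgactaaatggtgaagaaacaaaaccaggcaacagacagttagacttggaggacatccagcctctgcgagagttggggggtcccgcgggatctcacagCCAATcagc
Pde11a start 2: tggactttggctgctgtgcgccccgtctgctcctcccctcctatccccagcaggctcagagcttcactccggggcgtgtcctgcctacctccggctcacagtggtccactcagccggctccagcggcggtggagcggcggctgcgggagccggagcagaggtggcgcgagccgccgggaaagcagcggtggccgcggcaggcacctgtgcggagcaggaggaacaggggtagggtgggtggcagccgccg
Pde11a start 3: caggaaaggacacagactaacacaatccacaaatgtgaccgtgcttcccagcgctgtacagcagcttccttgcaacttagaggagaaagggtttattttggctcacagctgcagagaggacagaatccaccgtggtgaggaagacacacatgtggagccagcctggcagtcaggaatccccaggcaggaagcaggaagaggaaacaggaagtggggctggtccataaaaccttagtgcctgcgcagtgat

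Pde10a, the phosphodiesterase of striatal projection neurons, stood at 3.51 FPKM. Pde10a reached 7.04, 14.8 and 11.1 CPM in the adult libraries and 12.9, 7.87 and 17.6 CPM in the aged ones. Adult replicate 1 and aged replicate 2 were low and aged replicate 3 high. Pde10a thus averaged 11.0 ± 3.91 and 12.8 ± 4.86 CPM (adult, then aged, with SD), with a log2 fold change of 0.22 ± 0.35 (SE) that edgeR did not call. The 10 striatal genes summed to 191, 232 and 188 CPM in the adult and 199, 365 and 224 CPM in the aged libraries, and their part in the spread of Pde10a was not tested. Pde3a and Pde3b, inhibited by cyclic GMP and best known from vascular muscle, heart and fat, stood at 0.840 and 2.69 FPKM. Pde3a stood at 8.88, 6.83 and 4.67 CPM in adult replicates 1 to 3 and at 7.92, 5.54 and 6.82 CPM in aged replicates 1 to 3. For Pde3b the adult libraries held 10.8, 14.2 and 11.4 CPM and the aged libraries 10.3, 9.80 and 14.3 CPM, each in the order of replicates 1 to 3. Their log2 fold changes were -0.0043 ± 0.29 and -0.081 ± 0.22, and that of Pde3a was above 0 with RLE or library size scaling.

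The Pde4 enzymes, specific for cyclic AMP and the targets of rolipram, were led by Pde4a and Pde4b. Adult rats had 18.5, 35.1 and 24.6 CPM of Pde4a (replicates 1 to 3), and aged rats had 32.3, 19.1 and 28.0 CPM. Pde4b reached 14.6, 33.4 and 13.1 CPM in the adult libraries and 26.0, 13.3 and 25.6 CPM in the aged ones. In both genes adult replicate 2 and aged replicates 1 and 3 were above the other 3 libraries, and the adult and aged ranges overlapped. In the edgeR fit the log2 fold change of Pde4b was 0.088 ± 0.40 (SE), from means of 20.4 ± 11.3 and 21.6 ± 7.19 CPM (SD), and it was not called. Without adult replicate 2 the log2 fold change of Pde4b was 0.65, and without adult replicate 3 it was -0.14. Pde4d stood at 63.7, 67.4 and 57.9 CPM in adult replicates 1 to 3 and at 72.8, 57.0 and 60.6 CPM in aged replicates 1 to 3. Adult and aged means of Pde4d were 63.0 ± 4.80 and 63.5 ± 8.24 CPM (SD, n = 3), and the log2 fold change was 0.01 ± 0.13 (SE), not called by edgeR (adjusted p = 1.00). Its groups overlapped, and its interval was the narrowest of the 31. For Pde4c the adult libraries held 1.43, 2.97 and 1.53 CPM and the aged libraries 1.60, 4.58 and 3.32 CPM, each in the order of replicates 1 to 3. Aged replicate 2 had the most Pde4c, and the log2 fold change was 0.67 ± 0.48. By FPKM, Pde4a held between 42.9 and 52.5% of the Pde4 group, Pde4b between 25.7 and 39.4%, Pde4d between 14.0 and 24.1% and Pde4c between 1.13 and 5.21%.

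Cyclic AMP acts on transcription through CREB, which binds the sequence TGACGTCA or its core TGACG. The full sequence was found in 0 of 35 windows of 250 bases before starts of the 23 members in the RefSeq table (GRCr8), beside 1.59% of all windows. The core, on either strand, was found in 7 of the 35, belonging to Adcy9, Pde10a, Pde4a, Pde4d and Pde8a, beside 18.2% of all windows. In all 5 motifs were searched: these, CCAAT (5 of the 35 windows), TGACGCA (1 of the 35, beside 1.66% of all windows) and TATAAA (2 of the 35, beside 12.9% of all windows). These matches are letters only, and no binding was measured. Pde4a is shown as an example, with the core in capitals (TGACG in the window of start 1, its reverse complement CGTCA in that of start 3). These windows lie at chr8:27966737-27966986 (plus strand) and chr8:27999163-27999412 (plus strand). Of the 4 starts of Pde4a, the windows of starts 2 and 4 hold 0 cores and are not shown.
Pde4a start 1: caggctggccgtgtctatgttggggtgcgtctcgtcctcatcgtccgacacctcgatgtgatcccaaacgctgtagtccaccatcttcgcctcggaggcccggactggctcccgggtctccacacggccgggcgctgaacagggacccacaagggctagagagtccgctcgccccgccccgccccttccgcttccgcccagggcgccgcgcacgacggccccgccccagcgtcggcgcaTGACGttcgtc
Pde4a start 3: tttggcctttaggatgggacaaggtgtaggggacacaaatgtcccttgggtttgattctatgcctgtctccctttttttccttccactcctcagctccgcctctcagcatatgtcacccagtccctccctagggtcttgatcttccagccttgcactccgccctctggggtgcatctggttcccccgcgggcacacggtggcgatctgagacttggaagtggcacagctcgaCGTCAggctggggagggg

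The remaining enzymes specific for cyclic AMP showed no separation either. Adult rats had 35.3, 29.0 and 23.4 CPM of Pde8a (replicates 1 to 3), and aged rats had 19.8, 20.7 and 37.0 CPM. Pde8b reached 40.4, 63.3 and 51.4 CPM in the adult libraries and 52.2, 60.6 and 46.2 CPM in the aged ones. Pde8a and Pde8b, of high affinity for cyclic AMP, had log2 fold changes of -0.17 ± 0.27 and 0.034 ± 0.18. Without aged replicate 3, the highest library for Pde8a, its log2 fold change was -0.53. Pde7a stood at 14.8, 14.7 and 16.4 CPM in adult replicates 1 to 3 and at 11.3, 14.3 and 16.9 CPM in aged replicates 1 to 3. For Pde7b the adult libraries held 19.7, 23.7 and 39.8 CPM and the aged libraries 21.4, 20.7 and 24.8 CPM, each in the order of replicates 1 to 3. Pde7b was highest in adult replicate 3. Its log2 fold change was -0.31 ± 0.26, and 0.0471 once adult replicate 3 was left out.

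Among enzymes specific for cyclic GMP, Pde9a, of high affinity and expressed in neurons, was the most abundant at 18.9 FPKM. Adult rats had 45.3, 35.3 and 30.5 CPM of Pde9a (replicates 1 to 3), and aged rats had 37.9, 69.5 and 47.1 CPM. Aged replicate 2 was highest and adult replicate 3 lowest, with aged replicate 1 inside the adult range. Pde9a thus averaged 37.0 ± 7.53 and 51.5 ± 16.2 CPM (adult, then aged, with SD), with a log2 fold change of 0.47 ± 0.24 (SE) that edgeR did not call. Without aged replicate 2 the log2 fold change was 0.21. Pde5a, the sildenafil target of vascular muscle, stood at 2.47 FPKM. Pde5a reached 19.5, 15.7 and 17.5 CPM in the adult libraries and 19.4, 10.4 and 20.6 CPM in the aged ones. Aged replicate 2 stood apart below the other 5 libraries, and the log2 fold change was -0.062 ± 0.26. The 10 smooth muscle and pericyte genes summed to 199, 267 and 219 CPM in the adult and 176, 164 and 120.5 CPM in the aged libraries, and their part in the Pde5a values was not tested.

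**Figure D4:**
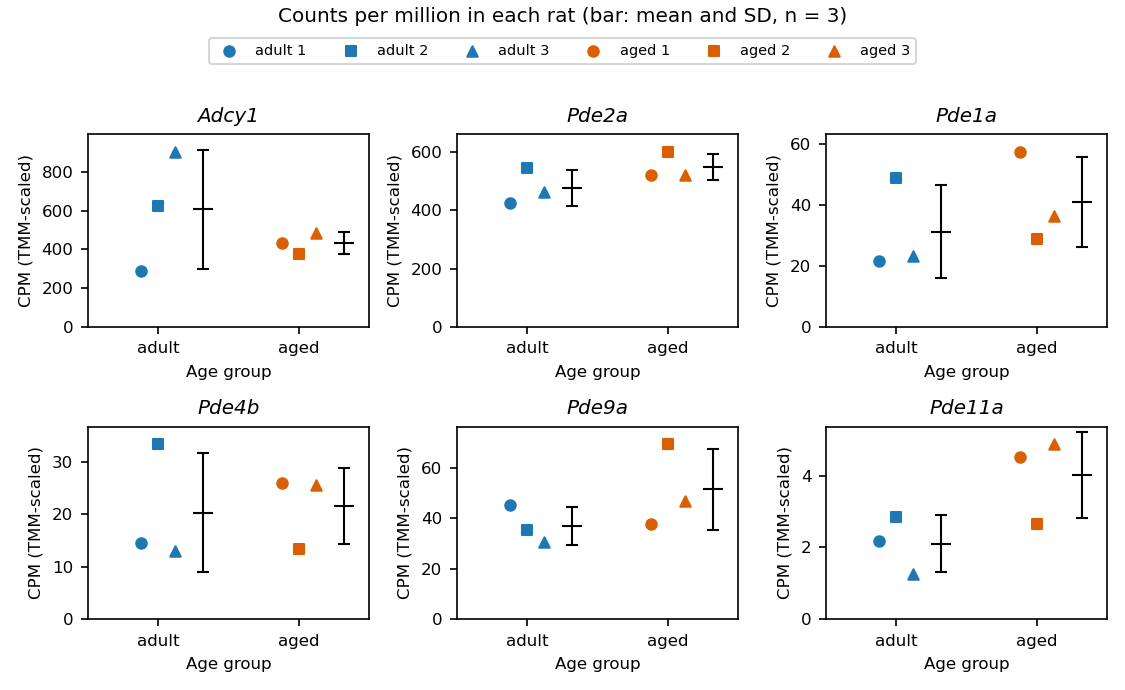
CPM of 6 members in each rat, with the replicate as marker shape and mean and SD (n = 3) as a bar beside each age group. Adcy1 spans 291 to 905 CPM in adult rats alone, and aged replicate 2 is apart from the other aged rats in Pde9a (69.5 CPM) and Pde11a (2.65 CPM).

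The photoreceptor enzyme Pde6 was nearly absent in its catalytic form. The rod subunit genes Pde6a and Pde6b had 2 and 19 reads over all 6 libraries, and the cone subunit gene Pde6c had 8, of which 6 were in adult replicate 3. At 0 reads, a library allows a level of up to 0.188 to 0.241 CPM (3 reads, counting error only). Pde6h, the inhibitory subunit of cones, had 30 reads. These 4 genes did not pass the filter on low counts and were not tested. Pde6g, the inhibitory subunit of rods, had 90 reads. It stood at 1.43, 1.20 and 1.13 CPM in adult replicates 1 to 3 and at 0.666, 0.482 and 1.06 CPM in aged replicates 1 to 3, which did not overlap. Adult and aged replicate 3 had 17 reads each. By FPKM they stood at 1.106 and 1.108, so the groups overlapped on that scale. In the edgeR fit the log2 fold change of Pde6g was -0.75 ± 0.44 (SE), from means of 1.26 ± 0.158 and 0.737 ± 0.297 CPM (SD), and it was not called. Pde6g overlaps Tspan10 in the GRCr8 annotation, a gene with 0 to 5 reads per library, so the count of Pde6g is uncertain. The photoreceptor and pineal genes summed to between 1.73 and 4.11 CPM in every library.

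Pde6d, by contrast, was the member next to Pde2a in level. It encodes a carrier of prenylated proteins to membranes and cilia and has no phosphodiesterase activity. Pde6d stood at 57.3, 48.1 and 60.0 CPM in adult replicates 1 to 3 and at 48.1, 47.5 and 40.8 CPM in aged replicates 1 to 3. Aged replicates 2 and 3 lay below every adult library, and aged replicate 1 was level with adult replicate 2. By FPKM, Pde6d stood at 51.4, 43.5 and 52.4 in the adult and 42.3, 42.5 and 38.0 in the aged libraries, which did not overlap. The share of all genes tested that did so by FPKM was not computed. By CPM the groups of Pde6d overlapped, and the share with aged lower was 4.43% of all genes tested. Adult and aged means of Pde6d were 55.1 ± 6.26 and 45.5 ± 4.05 CPM (SD, n = 3), and the log2 fold change was -0.28 ± 0.13 (SE), not called by edgeR (adjusted p = 1.00). Leaving out each library in turn gave log2 fold changes between -0.37 and -0.21. Pde12, likewise no cyclic nucleotide phosphodiesterase in its main role, removes adenosines from mitochondrial RNA tails. For Pde12 the adult libraries held 4.71, 5.18 and 5.53 CPM and the aged libraries 5.06, 3.21 and 4.26 CPM, each in the order of replicates 1 to 3. Aged replicate 2 was lowest, and the log2 fold change was -0.30 ± 0.27.

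The order of the libraries was read for each gene. Adult replicate 1 was the lowest library for 11 of the 31 genes tested and adult replicate 3 for 10, while adult replicate 2 was lowest for 0. Over all genes tested the lowest library was adult replicate 1 in 16.7%, adult replicate 2 in 14.6% and adult replicate 3 in 16.6%. Aged replicate 3 was highest for 8 members, beside 16% of all genes tested. The other libraries were highest for 4 or 5 members each, beside 15.6 to 18.5% of all genes tested. Pde1a, Pde4a, Pde4b, Pde10a, Pde11a, Adcy3 and Adcy10, picked after their values were seen, all had adult replicate 2 and aged replicates 1 and 3 as their higher libraries. Dnajc27, which overlaps Adcy3, had the same libraries highest, and its part in the Adcy3 values was not tested. Of the 5 excitatory neuron genes, Camk2a and Tbr1 had the same libraries highest and Slc17a7, Neurod2 and Neurod6 did not, and their part in the pattern was not tested. By edgeR's estimate, the biological coefficient of variation had a median of 24.7% for the 31 genes and 19.0% for all genes tested, without matching for level.

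**Figure D5:**
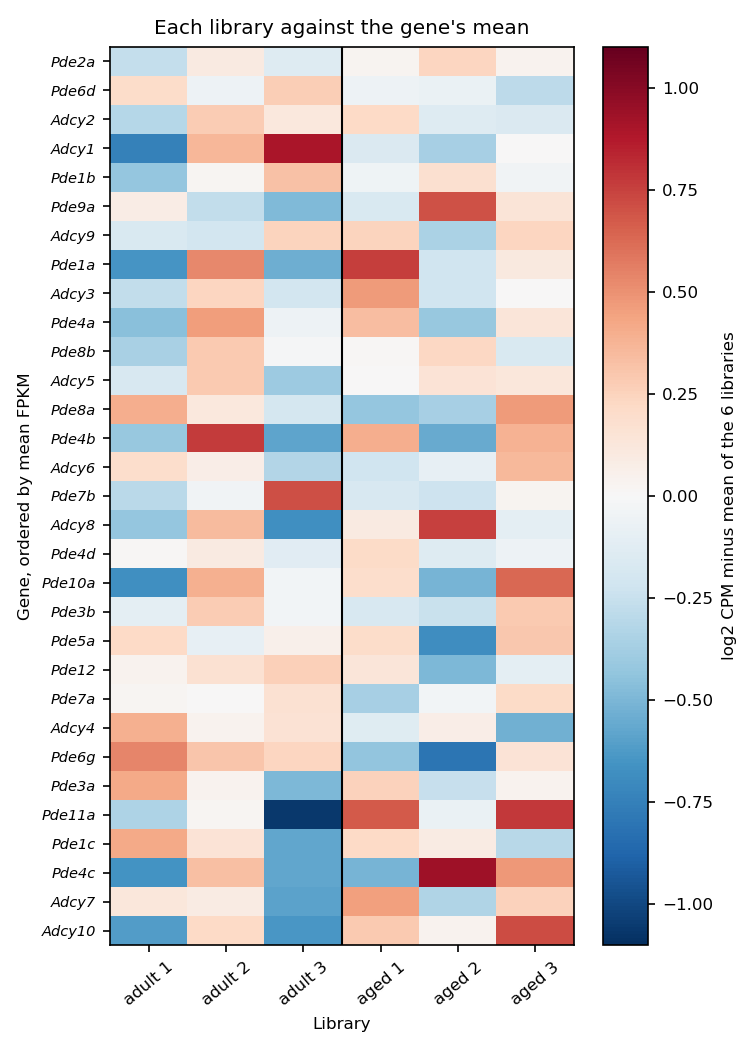
Log2 CPM of each library minus the mean of the 6 libraries, for the 31 genes tested, ordered by mean FPKM from the top (red above, blue below the mean). Columns of one age do not share a colour: adult replicates 1 and 3 and aged replicate 2 have medians below 0, and the other 3 libraries above 0, and the strongest blue is Pde11a in adult replicate 3.

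Other genes of the cyclic nucleotide pathway, from 12 lists chosen with earlier results of these data known, were read in the same fit. Of the 90 genes listed 75 were tested, and 0 were called in either direction by edgeR, with 0 at an unadjusted p under 0.05 and 0 called by DESeq2 or limma-voom. Their median log2 fold change was 0.066. Of the 75, 47 lay above 0 and 28 below, beside 7214 above and 7374 below among all genes tested. By CPM the groups did not overlap in 3 genes, all with aged lower, namely Nos3, Cnga4 and Crem. In that direction the share over all genes tested was 4.43%. By FPKM the groups of Cnga4 overlapped, with adult replicate 3 at 0.2354 and aged replicate 3 at 0.2358. The 2 genes of each list with the smallest p, where reported, are given with their log2 fold change (aged minus adult, SE).

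Upstream of the cyclases, the G protein alpha subunits had 2 genes above 0 and 5 below, with Gnai1 at 0.26 ± 0.21 and Gnai3 at -0.13 ± 0.12, both inhibitory subunits. Among Gs-coupled receptors and PACAP, 9 of 13 lay above 0. Vipr1, a receptor for VIP and PACAP, was at 0.30 ± 0.17, and Adcyap1, which encodes PACAP, was at 0.32 ± 0.20. For cyclic GMP, 5 of 6 guanylyl cyclases tested lay above 0, with the natriuretic peptide receptor Npr2 at 0.16 ± 0.12 and the nitric oxide-sensitive subunit Gucy1a3 at 0.16 ± 0.19. Endothelial nitric oxide synthase, Nos3, had 14.1, 14.1 and 13.1 CPM in the adult libraries and 11.8, 11.5 and 10.1 CPM in those of aged animals (-0.31 ± 0.16 on the log2 scale). The 8 endothelial genes summed to 393, 524 and 376 CPM in the adult and 343, 386 and 287 CPM in the aged libraries, and their part in this was not tested. Neuronal Nos1 was at 0.57 ± 0.54, ranging from 2.25 to 8.47 CPM.

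Downstream, 5 of 6 subunits of protein kinase A lay above 0, with the regulatory subunits Prkar2b at 0.21 ± 0.13 and Prkar2a at 0.13 ± 0.13. The kinase inhibitor genes Pkib and Pkia were at 0.45 ± 0.27 and -0.24 ± 0.17. Among 14 anchoring proteins tested 12 lay above 0, with Akap6, of the nuclear envelope, at 0.25 ± 0.14 and Akap9, of the Golgi and centrosome, at 0.15 ± 0.12. The cyclic GMP-dependent kinase Prkg2 was at 0.67 ± 0.74 and the exchange factor Rapgef3 (Epac) at 0.14 ± 0.16. Of the gated channels 4 of 5 lay above 0, with Hcn3 at 0.37 ± 0.25, while Cnga4 was very low, with 1 to 16 reads per library and a log2 fold change of -0.91 ± 0.64.

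In the CREB group 6 of 7 genes lay below 0. Crem, whose inducible product represses cyclic AMP-driven transcription, stood at 17.6, 14.2 and 15.2 CPM in adult replicates 1 to 3 and at 13.8, 13.5 and 11.1 CPM in aged replicates 1 to 3. These did not overlap, and the log2 fold change was -0.29 ± 0.17, not called at an adjusted p of 1.00 by edgeR. Atf1 was at -0.10 ± 0.17. The calmodulin gene Calm2 was at -0.07 ± 0.17, and among exporters and Popeye proteins the cyclic AMP exporter Abcc4 was at -0.21 ± 0.18 and Bves at -0.51 ± 0.44.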

How the data were processed

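RNA from the ventral hippocampus of 6 rats, 3 of 4 months and 3 of 22 months, was sequenced as 1 library per rat. The authors deposited raw counts per gene symbol, whole numbers for 22601 genes, and FPKM values for the same genes. The deposited FPKM equal count over gene length and library total: the length they imply varied by under 1% between libraries in each of 18553 genes. The genome build is Rnor_6.0, per the submitters' processing notes, and neither the aligner nor the counting program, annotation or strand setting is given in the sources used here. Without strand, reads of overlapping genes cannot be told apart. Dates stood in place of 27 gene symbols, and no member is among these.

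Counts were filtered with filterByExpr, normalized by TMM, then compared by edgeR's quasi-likelihood test (edgeR 4.0.16, R 4.3.3), two-sided, with age as the only term and all 6 libraries in the fit. Of 22601 genes 14588 were tested, p-values were adjusted over all of them (Benjamini-Hochberg) and calls made at an adjusted p under 0.05. Standard errors and 95% intervals come from the F statistic. P-values and intervals rest on only 3 rats per age. The members and gene lists were chosen with earlier results of these data known. Members with a mean of at least 1 CPM are given in every library, and of each pathway list the 2 genes with the smallest p, of which 1 is not reported here. Alternatives were RLE and library size scaling, no filter, a filter of 1 CPM in 3 libraries, DESeq2 1.42.0, limma-voom and limma (3.58.1) on log2(FPKM + 1) and log2(FPKM + 0.1), the replicate number as a block, and leaving out each library. The fits were also run on simulated counts that gave every gene the same biological variation. That run does not show which differences could be found in these members, whose variation differed from gene to gene. Enzyme classes (textbook substrates and regulation) and motifs were chosen after the files were seen, and the promoters shown after values were seen. All 35 members matched RefSeq's GRCr8 gene table by symbol, used for overlapping genes, and 23 matched its promoter table. That assembly differs from the files' build, and its coordinates serve only the printed sequences. Figures were drawn with matplotlib 3.10.9.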

Additional observations from a re-analysis of the deposited data

How the results depend on the processing

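With other settings the count of members called stayed at 0 in all 16 alternatives, as did that of pathway genes. Over all genes, 0 were called in the chosen fit, 31 with DESeq2, 2 with limma on log2(FPKM + 1), and between 0 and 1 when a library was left out, 1 each without adult replicates 1, 2 and 3. These counts held no member. The cause was not tested. Members at an unadjusted p under 0.05 numbered between 0 and 5, with 5 without adult replicate 2. The members' median log2 fold change ran from -0.01 without adult replicate 3 to 0.12 without aged replicate 2. Of 539 single-gene values under settings other than leaving out a library, 10 changed sign. Pde3a became 0.0024 with RLE scaling, 0.0071 with library size scaling, 0.0032 with DESeq2, 0.0419 with limma-voom, 0.0099 with log2(FPKM + 1) with and without a filter, 0.035 with log2(FPKM + 0.1) and 0.0248 with the replicate block. Pde1c became 0.0097 with log2(FPKM + 0.1) and 0.0021 with the replicate block. Of 324 values with 1 library left out, 40 changed sign, in 19 genes, and their log2 fold changes ran from -0.21 to 0.0674 (Adcy2), from -0.0242 to 0.35 (Adcy3), from -0.15 to 0.17 (Adcy6), from -0.24 to 0.0105 (Atf1), from -0.17 to 0.0796 (Calm2), from -0.0783 to 0.50 (Pde10a), from -0.13 to 0.23 (Pde1b), from -0.27 to 0.20 (Pde1c), from -0.21 to 0.25 (Pde3a), from -0.27 to 0.0488 (Pde3b), from -0.16 to 0.30 (Pde4a), from -0.14 to 0.65 (Pde4b), from -0.0823 to 0.0875 (Pde4d), from -0.24 to 0.19 (Pde5a), from -0.26 to 0.0475 (Pde7a), from -0.49 to 0.0471 (Pde7b), from -0.53 to 0.0037 (Pde8a), from -0.10 to 0.21 (Pde8b), from -0.0048 to 0.28 (Rapgef3). Over all genes tested, deviations of libraries sharing a replicate number correlated at -0.0152, -0.057 and 0.0865 for numbers 1, 2 and 3. Adult replicates 1 and 2 did not correlate best with their own number, and adult replicate 3 did. The liver genes were low in replicate 1 of both ages, at 23.0 and 26.1 CPM, beside 216.5 to 566.5 CPM in the other libraries. Whether rats with the same number shared their handling was not tested. The replicate block called 0 genes and 0 members, with a members' median of 0.0431. With 3 rats per age, intervals past a 2-fold difference remain for members with few reads, such as Adcy10 and Pde4c, and with many, such as Adcy1 (-1.30 to 0.32), Pde1a (to 1.22), Adcy8 (to 1.22) and Pde9a (to 1.03).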
